A study of Mus musculus with 9 samples.

Results

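The genes described here encode the constitutive subunits of the mouse proteasome, the complexes that activate or inhibit it, and the factors that assemble it. They were taken as every gene whose symbol begins Psma to Psmg followed by a number, without the inducible catalytic subunits Psmb8, Psmb9 and Psmb10, on rows that carry 1 gene symbol. The rule found 47 of the 19938 genes tested. Of these, 43 fall in 6 roles: 7 core alpha subunits, 7 core beta subunits, 9 base subunits, 8 lid subunits, 5 activators or inhibitors and 7 assembly factors. Another 2, Psma8 and Psmb11, are core subunits restricted to testis and thymus. The last 2, Psmc3ip and Psme3ip1, share the letters of the symbol but are not subunits: the first is a recombination factor and the other a partner of the activator Psme3.

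RNA levels come from 9 arrays (Affymetrix Mouse Gene 1.0 ST), 3 for each of 3 groups. All groups were immortalized mouse embryonic fibroblasts of ICR background that received an adenovirus, at 1e8 pfu per ml for 2 h, and then 70 h in normal medium with 10% serum at 37 °C. The virus carried a control (scrambled) short hairpin RNA (shRNA), an shRNA against the heat shock factor HSF1, or an shRNA that targets RPA1, part of the complex RPA that coats single-stranded DNA. The series asks whether a complex of HSF1 and RPA regulates gene expression, and no uninfected cells were among these arrays.

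The proteasome degrades proteins tagged with ubiquitin. Its barrel-shaped core is built of outer rings of alpha subunits, which gate the entrance, and inner rings of beta subunits, which cut the substrate. A regulatory cap docks on the core: its base holds a ring of ATPases that unfolds the substrate, and its lid removes the ubiquitin chain. Other caps, of the Psme genes, open the core without the ATPases, and dedicated chaperones guide the assembly of core and cap. In mammalian cells a shortage of proteasome activity is known to raise transcription of the subunit genes through the factor Nfe2l1.

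Values are log2 signals, so a difference of 1 would be a doubling, and differences are given with the standard error of the limma fit. A gene is said to have risen or fallen where its adjusted p was under 0.05 (limma, 2-sided, Benjamini-Hochberg over all 19938 genes). Nothing in the labels tells if replicate arrays came from separate cultures, so p-values cover just the spread between these 9 arrays. An exact permutation test of 3 arrays against 3 could not give a p below 0.1. In bulk RNA, fewer cells of a type and less RNA per cell cannot be told apart.

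The target of 1 shRNA could be checked. The Rpa1 log2 signal was 11.40, 11.42 and 11.41 in the control arrays, 11.35, 11.33 and 11.30 under HSF1 shRNA, and 9.42, 9.34 and 9.40 under RPA1 shRNA. Rpa1 fell by 2.02 ± 0.04 under RPA1 shRNA (limma adjusted p = 3.5e-08), and Hsf1 was not analysed here. Array medians over all rows lay between 7.72 and 7.81. RPA1 shRNA array 3 stood apart in the proteasome genes: it lay above both other RPA1 shRNA arrays in 36 of the 47 genes, where 39.4% of all genes did so, and below both in 7 (34.7% of all genes). A fit without it is therefore given beside the main counts. Of 9 fibroblast markers, 4 fell under HSF1 shRNA and 7 under RPA1 shRNA, where 6.21% and 14.7% of all genes fell. In either, 0 were higher. Leaving out RPA1 shRNA array 3 gave 6 lower and 1 higher under HSF1 shRNA and 7 lower under RPA1 shRNA. In that fit 9.16% of all genes were lower and 14.4% higher under HSF1 shRNA, and 17.8% lower under RPA1 shRNA. The HSF1 shRNA count of fibroblast markers was 1 without control array 1 and 2 without control array 2 or HSF1 shRNA array 3. Unlogged signals of each marker list were summed and the sums put on the log2 scale. For fibroblasts they were 15.51 to 15.54 in control arrays, 15.36 to 15.40 under HSF1 shRNA and 15.06 to 15.16 under RPA1 shRNA. Of 27 markers of epithelial, endothelial, macrophage and blood, muscle and neural cells, 6 rose under HSF1 shRNA and 9 rose and 1 fell under RPA1 shRNA. The shares of all genes called, in either direction, were 16.1% and 30.1%. When RPA1 shRNA array 3 was dropped the counts of the 27 were 10 higher and 1 lower, and 10 higher and 0 lower. The shares of all genes were then 23.6% and 36.3%. The HSF1 shRNA count of the 27 was 3 without control array 2 or HSF1 shRNA array 2 or 3. The macrophage and blood list stood at 9.60 to 9.77, 9.93 to 9.95 and 10.55 to 11.07 in the 3 groups, led by Cd68, and the neural list at 11.63 to 11.77, 12.01 to 12.07 and 12.21 to 12.35, led by Nes. Ptprc and Adgre1 of the first list stayed at group means of 5.96 to 6.09. Map2 of the neural list went the other way, with means of 9.20, 9.02 and 8.98, and was the marker that fell under RPA1 shRNA. That Map2 call was lost without any 1 control array, HSF1 shRNA array 2 or 3, or RPA1 shRNA array 2 or 3. It was also lost under quantile scaling. The epithelial list stood at 10.386 to 10.415, 10.617 to 10.643 and 10.439 to 10.608 in the 3 groups. The endothelial list stood at 9.499 to 9.546, 9.615 to 9.682 and 9.515 to 9.727. The muscle list stood at 10.352 to 10.389, 10.461 to 10.525 and 10.531 to 10.71. The part of these markers in the results on the proteasome was not tested.

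Under HSF1 shRNA the proteasome genes lay mostly above control. Of the 47, 14 rose and 1 fell, where 16.1% of all genes were called, 9.89% of them higher and 6.21% lower. The difference was above 0 in 43 of 47 genes and in 12353 of all 19938, and its median was 0.15 against 0.04 over all genes. In 32 genes all 3 HSF1 shRNA arrays lay above all 3 control arrays (23.9% of all genes), and in 2 all lay below (13.9%). Under RPA1 shRNA 16 of the 47 rose and 3 fell, where 30.1% of all genes were called, 15.4% higher and 14.7% lower. The median difference was 0.10 against 0.02 over all genes, and 32 of the 47 genes lay above 0, as did 10920 of all 19938. All 3 RPA1 shRNA arrays lay above all controls in 21 genes (21.9% of all genes) and below in 5 (19.2%). Both comparisons use the same 3 control arrays, so their values are given side by side.

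**Figure D1:**
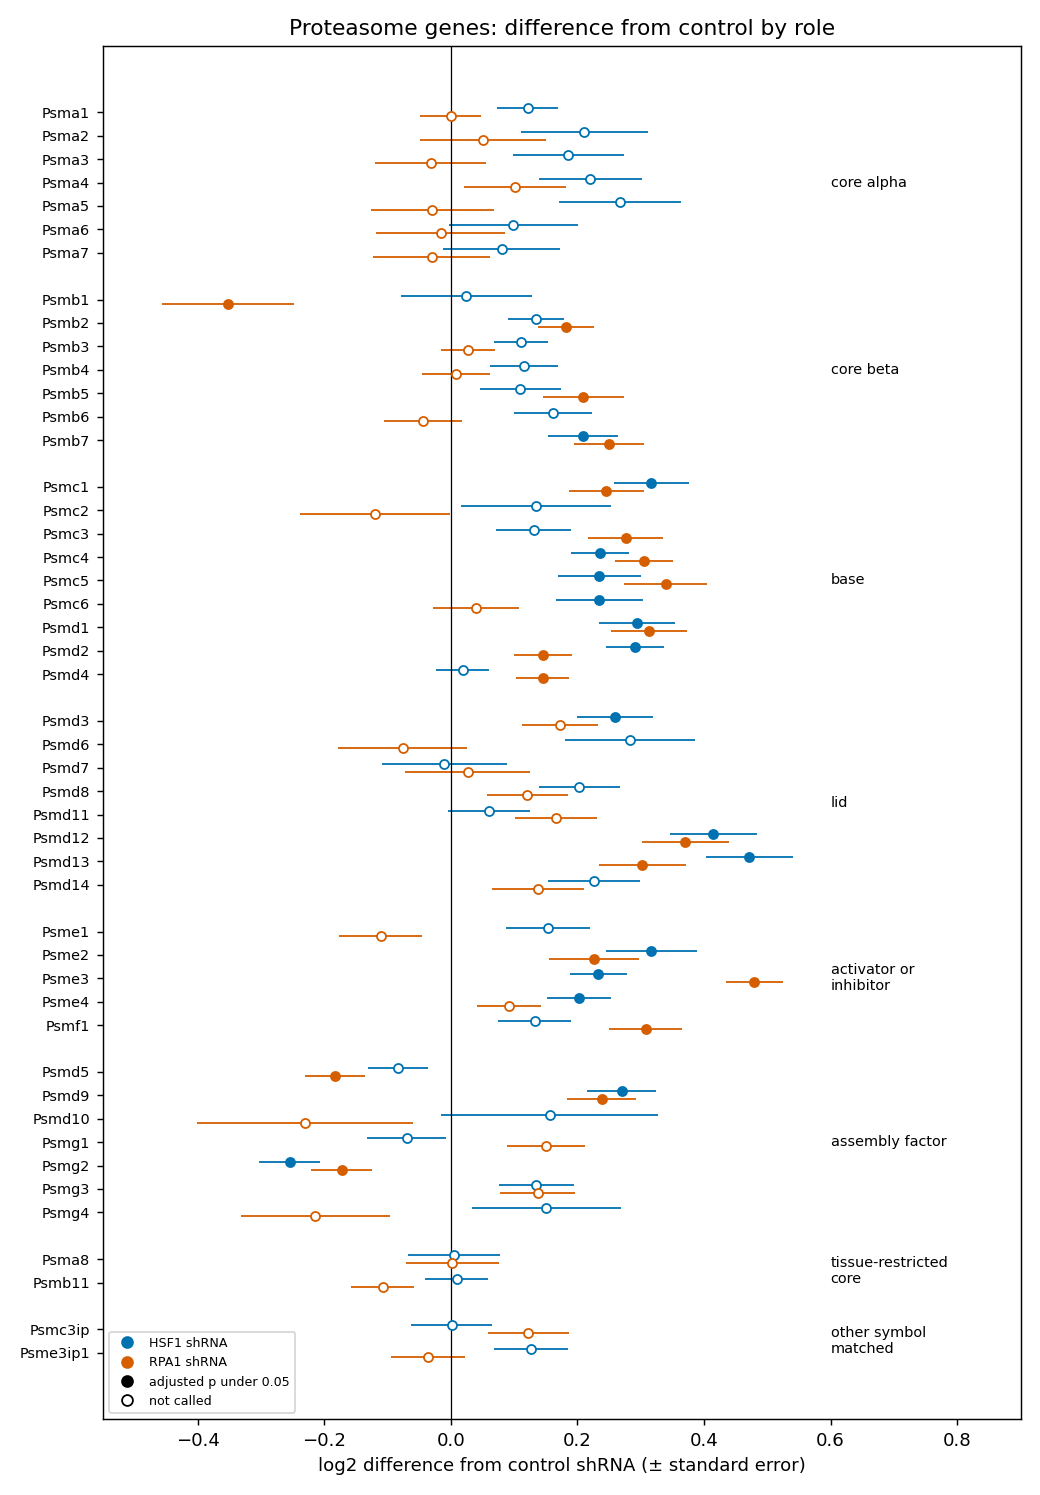
Log2 difference from control shRNA for each of the 47 genes, grouped by role, under HSF1 shRNA (blue) and RPA1 shRNA (orange). Points are limma estimates, bars their standard errors, and filled points have an adjusted p under 0.05. The base, lid and activator genes lie mostly right of 0 under both shRNAs, while the core alpha genes lie right of 0 under HSF1 shRNA and around 0 under RPA1 shRNA.

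Upstream sequence is shown for 4 genes. These are the lid subunits Psmd12 and Psmd13 and the activator Psme3, which have the largest rises, and the catalytic subunit Psmb5, whose window holds both a heat shock and an antioxidant motif. Each is written 5′ to 3′ on the gene's own strand, ends at the base before the annotated start in RefSeq GRCm38.p6, and has motif matches in capitals.
Psmd12, chr11:107479278-107479527, plus strand: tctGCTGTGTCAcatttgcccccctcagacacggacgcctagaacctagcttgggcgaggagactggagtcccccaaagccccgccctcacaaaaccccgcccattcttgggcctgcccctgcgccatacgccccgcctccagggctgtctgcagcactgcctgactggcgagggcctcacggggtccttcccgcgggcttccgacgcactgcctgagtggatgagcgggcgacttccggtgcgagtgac
Psmd13, chr7:140882310-140882393, plus strand, 84 bases because the neighbouring gene Sirt3 begins beyond them: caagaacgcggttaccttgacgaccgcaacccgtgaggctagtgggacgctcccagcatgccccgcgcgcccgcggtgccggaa
Psme3, chr11:101315963-101316212, plus strand: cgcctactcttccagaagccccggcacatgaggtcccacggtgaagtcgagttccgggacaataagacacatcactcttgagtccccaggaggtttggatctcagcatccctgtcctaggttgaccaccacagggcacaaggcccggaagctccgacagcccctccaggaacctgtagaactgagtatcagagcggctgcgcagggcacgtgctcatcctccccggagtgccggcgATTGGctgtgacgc
Psmb5, chr14:54617996-54618245, minus strand: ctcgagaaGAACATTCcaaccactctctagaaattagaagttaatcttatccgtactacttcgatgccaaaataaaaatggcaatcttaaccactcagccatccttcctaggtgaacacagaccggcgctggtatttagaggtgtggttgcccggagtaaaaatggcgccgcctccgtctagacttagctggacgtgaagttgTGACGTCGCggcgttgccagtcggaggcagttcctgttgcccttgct
Capitals mark TGACNNNGC on the opposite strand at -247 to -239 in Psmd12, and CCAAT on the opposite strand at -14 to -10 in Psme3. In Psmb5 they mark GAANNTTC at -242 to -235 and TGACNNNGC at -47 to -39. The 84 bases of Psmd13 hold none of these letters.

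Windows of 300 bases, 250 before and 50 after the start, were on hand for 39 of the 47 genes, with 43 windows in all. The heat shock element core GAANNTTC, the motif of HSF1, was in 2 of the 43 windows on either strand (4.65%), those of Psmb5 and Psmf1, against 7.86% of 32851 mouse windows. The antioxidant element core TGACNNNGC, read by Nfe2l1 with small Maf partners, was in 6 (14.0%, against 12.4%): Psmb5, Psmb6, Psmc6, Psmd12, Psmd9 and Psme4. CCAAT was in 15 (34.9%, against 37.4%). The 3 motifs share no overlapping match in the sequences printed. A match here describes letters in a window and says nothing of binding.

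With all 9 arrays 1 of the 14 core genes was called under HSF1 shRNA, against 6 of 9 in the base and 3 of 8 in the lid. The share of all genes called was 16.1%. Without RPA1 shRNA array 3 the calls were 7 in the core, 6 in the base and 6 in the lid. The share of all genes was then 23.6%. Of the 7 alpha subunits 0 were called at adjusted p under 0.05 in either comparison. Their median difference was 0.19 under HSF1 shRNA, from 0.08 ± 0.09 in Psma7 to 0.27 ± 0.10 in Psma5 (limma adjusted p = 0.63 and 0.098). It was -0.02 under RPA1 shRNA, from -0.03 ± 0.09 in Psma3 to 0.10 ± 0.08 in Psma4 (limma adjusted p = 0.84 and 0.41). Array by array, the alpha median minus the control mean was 0.24, 0.16 and 0.12 in the HSF1 shRNA arrays and -0.12, -0.08 and 0.19 in the RPA1 shRNA arrays. The first 2 RPA1 shRNA arrays thus lay below the controls and the third among the HSF1 shRNA arrays. RPA1 shRNA array 3 exceeded the mean of arrays 1 and 2 in 7 of 7 alpha genes, by a median of 0.30. Without that array the alpha median was -0.12 under RPA1 shRNA with 0 called, and 4 alpha genes were called higher under HSF1 shRNA: Psma2, Psma3, Psma4 and Psma5. The HSF1 shRNA differences are the same in both fits, and only the shared estimate of the spread became smaller.

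**Figure D2:**
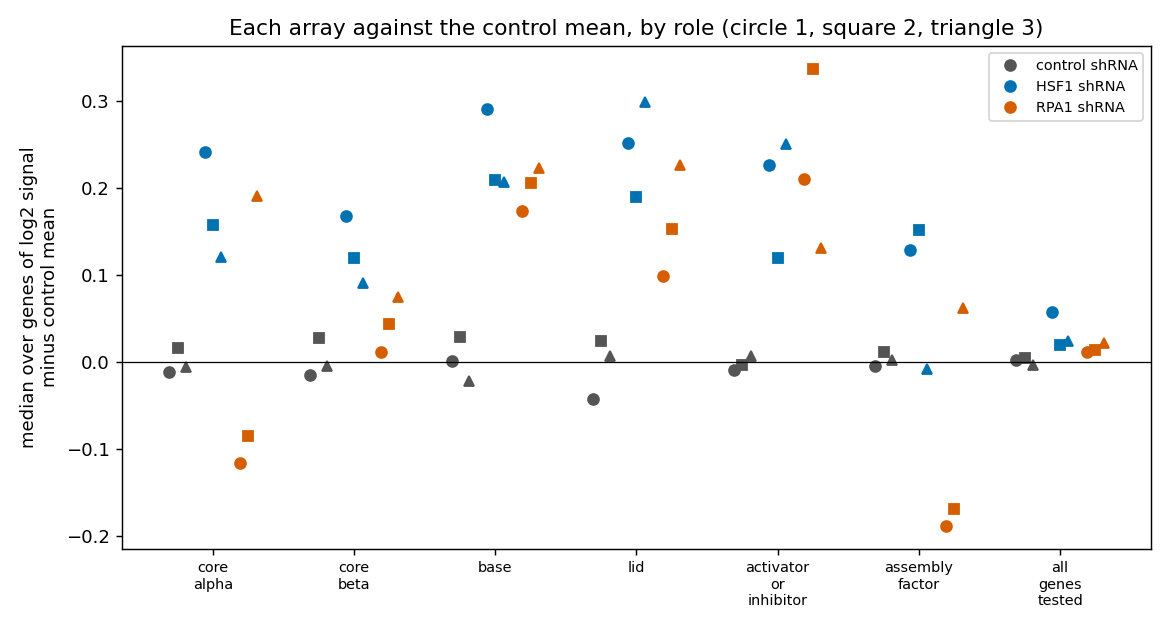
Median over the genes of a role of the log2 signal minus the control mean, for each of the 9 arrays, with all 19938 genes at the right. Colours are shRNA groups and shapes array numbers. In the core alpha genes RPA1 shRNA arrays 1 and 2 lie at -0.12 and -0.08 and array 3 at 0.19; in the base genes the 3 lie at 0.17, 0.21 and 0.22.

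The beta subunits did not move as a block under RPA1 shRNA. Psmb2, Psmb5 and Psmb7 rose and Psmb1 fell, while under HSF1 shRNA Psmb7 alone of the 7 was called. Of all genes 30.1% were called under RPA1 shRNA and 16.1% under HSF1 shRNA. Psmb7 carries the trypsin-like site and Psmb5 the chymotrypsin-like site. The Psmb7 signal was 11.88, 11.92 and 11.78 in control arrays, 12.07, 12.09 and 12.03 under HSF1 shRNA and 12.08, 12.18 and 12.07 under RPA1 shRNA. Every knockdown array lay above every control array. The rise was 0.21 ± 0.06 under HSF1 shRNA and 0.25 ± 0.06 under RPA1 shRNA (limma adjusted p = 0.03 and 0.0071). Psmb5, whose upstream sequence is printed above, differed by 0.11 ± 0.06 under HSF1 shRNA and by 0.21 ± 0.06 under RPA1 shRNA (limma adjusted p = 0.31 and 0.033). Psmb6, the caspase-like subunit, was not called in either, at 0.16 ± 0.06 and -0.04 ± 0.06 (limma adjusted p = 0.11 and 0.66).

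Psmb1, a beta subunit with no catalytic site, went the other way under RPA1 shRNA. Its signal was 11.43, 11.54 and 11.58 in control arrays, 11.58, 11.58 and 11.46 under HSF1 shRNA and 11.08, 10.98 and 11.43 under RPA1 shRNA. The third RPA1 shRNA array equalled the lowest control to 2 decimals, and the other 2 lay well below. The HSF1 shRNA difference was 0.02 ± 0.10 (limma adjusted p = 0.91), and under RPA1 shRNA Psmb1 fell by 0.35 ± 0.10, which is 1.28-fold (limma adjusted p = 0.028). Without array 3 the fall was -0.48 ± 0.06 (limma adjusted p = 0.00038). The Psmb1 call was lost without RPA1 shRNA array 1 or 2 and without control array 2 or 3. The Psmb7 call under HSF1 shRNA was lost without control array 1 or 3 or any 1 HSF1 shRNA array, and under quantile, median or loess scaling, which left 0 beta genes called. Without RPA1 shRNA array 3 it was 3 beta genes, where 23.6% of all genes were called. Under RPA1 shRNA the 4 beta calls became 2 without control array 3 or RPA1 shRNA array 2.

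With all 9 arrays the base, the largest of the 6 roles, had the most calls. Of its 9 subunits 6 rose under HSF1 shRNA (Psmc1, Psmc4, Psmc5, Psmc6, Psmd1 and Psmd2) and 7 under RPA1 shRNA (Psmc1, Psmc3, Psmc4, Psmc5, Psmd1, Psmd2 and Psmd4), with 0 lower. The shares of all genes called were 16.1% and 30.1%. The median difference of the base was 0.23 and 0.25. Without RPA1 shRNA array 3 the base and the lid each had 6 calls under HSF1 shRNA. Under RPA1 shRNA 7 of the 9 base genes and 6 of the 7 assembly factors were then called. In that fit 23.6% of all genes were called under HSF1 shRNA and 36.3% under RPA1 shRNA. The HSF1 shRNA calls of Psmc5 and Psmc6 were lost with median centring, unmoderated variances or the replicate number as a block. Psmc1, an ATPase of the ring, gave 11.34, 11.40 and 11.29 in control arrays, 11.68, 11.65 and 11.65 under HSF1 shRNA and 11.52, 11.55 and 11.70 under RPA1 shRNA. Psmd1, a large scaffold subunit of the base, gave 12.64, 12.71 and 12.64, then 12.97, 12.96 and 12.94, then 12.91, 12.91 and 13.11. Neither gene's knockdown arrays overlapped the controls. Psmc1 rose by 0.32 ± 0.06 and 0.25 ± 0.06 (limma adjusted p = 0.0064 and 0.011) and Psmd1 by 0.29 ± 0.06 and 0.31 ± 0.06 (limma adjusted p = 0.01 and 0.0035).

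The ATPase Psmc5 had the largest base difference under RPA1 shRNA with all arrays, at 0.34, and without array 3 it came after Psmc4 and Psmc3, with 0.296 against 0.337 and 0.303. Its signal was 9.86, 10.04 and 9.86 in control arrays, 10.21, 10.12 and 10.12 under HSF1 shRNA and 10.18, 10.25 and 10.34 under RPA1 shRNA. The second control array lay closest to the knockdown arrays, with no overlap. Psmc5 rose by 0.23 ± 0.07 and 0.34 ± 0.07 (limma adjusted p = 0.039 and 0.0036). Its partner in the ring Psmc4 rose by 0.24 ± 0.05 and 0.31 ± 0.05 (limma adjusted p = 0.0078 and 0.00088). Psmd4, a ubiquitin receptor of the cap, differed by 0.02 ± 0.04 under HSF1 shRNA and rose by 0.15 ± 0.04 under RPA1 shRNA (limma adjusted p = 0.82 and 0.025).

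Of the 6 ATPases, Psmc2 and Psmc6 were not called under RPA1 shRNA. Psmc6 stood at 0.04 ± 0.07 (limma adjusted p = 0.72) and without array 3 at -0.04. Psmc2 was chosen after its values were seen. Its signal was 10.79, 10.80 and 10.77 in control arrays, 10.97, 10.97 and 10.82 under HSF1 shRNA and 10.57, 10.44 and 10.99 under RPA1 shRNA. RPA1 shRNA arrays 1 and 2 lay below all controls and array 3 above all of them. The RPA1 shRNA difference was -0.12 ± 0.12 (limma adjusted p = 0.51), and without array 3 Psmc2 was called, at -0.28. Without array 3 the base as a whole held 6 rises and 1 fall under RPA1 shRNA, with a median of 0.19. Of all genes 18.5% rose and 17.8% fell in that fit.

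The lid held the largest rise under HSF1 shRNA of all 47 genes. Psmd13, a scaffold subunit of the lid, gave 10.93, 10.99 and 10.99 in control arrays, 11.49, 11.53 and 11.31 under HSF1 shRNA and 11.22, 11.23 and 11.37 under RPA1 shRNA. Its neighbour in the lid Psmd12 gave 11.38, 11.48 and 11.42, then 11.85, 11.82 and 11.87, then 11.72, 11.72 and 11.96. In both genes all 6 knockdown arrays lay above all controls. Psmd13 rose by 0.47 ± 0.07 under HSF1 shRNA, which is 1.39-fold, and by 0.30 ± 0.07 under RPA1 shRNA (limma adjusted p = 0.0021 and 0.0082). Psmd12 rose by 0.41 ± 0.07 and 0.37 ± 0.07, which is 1.33-fold and 1.29-fold (limma adjusted p = 0.0039 and 0.0028). Of the upstream sequences printed above, that of Psmd12 holds an antioxidant element core and that of Psmd13 none of the 3 motifs.

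The rest of the lid was less uniform. Psmd3 also rose under HSF1 shRNA, by 0.26 ± 0.06, and stood at 0.17 ± 0.06 under RPA1 shRNA (limma adjusted p = 0.017 and 0.056). Psmd14, the enzyme that cleaves the ubiquitin chain from the substrate, was not called, at 0.23 ± 0.07 and 0.14 ± 0.07 (limma adjusted p = 0.064 and 0.19). Its inactive partner Psmd7 stood at -0.01 ± 0.10 and 0.03 ± 0.10 (limma adjusted p = 0.96 and 0.88). Lid totals were 3 of 8 higher under HSF1 shRNA and 2 of 8 under RPA1 shRNA, with medians of 0.24 and 0.15 and 0 lower. Of all genes 16.1% were called under HSF1 shRNA and 30.1% under RPA1 shRNA. Without RPA1 shRNA array 3 the lid totals were 6 higher under HSF1 shRNA. Under RPA1 shRNA they were then 3 higher and 1 lower, the last being Psmd6 at -0.21. In that fit the shares of all genes called were 23.6% and 36.3%.

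Among activators and inhibitors, the arrays of the 2 knockdowns did not overlap in Psme3, Psme1 and Psmf1. In 20.5% of all genes the HSF1 shRNA arrays lay wholly above the RPA1 shRNA arrays, and in 14.1% wholly below. Psme3 forms a nuclear activator ring of the core. Its signal was 12.23, 12.22 and 12.25 in control arrays, 12.41, 12.48 and 12.51 under HSF1 shRNA and 12.68, 12.71 and 12.74 under RPA1 shRNA. The 3 groups did not overlap, and the order was control, HSF1 shRNA, RPA1 shRNA. Psme3 rose by 0.23 ± 0.05 under HSF1 shRNA (limma adjusted p = 0.0078) and by 0.48 ± 0.05 under RPA1 shRNA, which is 1.39-fold (limma adjusted p = 6.5e-05). Of the 47 genes it had the largest rise under RPA1 shRNA.

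Psmf1 encodes an inhibitor of the core that also serves in proteasome transport and assembly. Its signal was 11.42, 11.45 and 11.42 in control arrays, 11.56, 11.53 and 11.58 under HSF1 shRNA and 11.73, 11.85 and 11.63 under RPA1 shRNA. The knockdown arrays lay above the controls in both groups. The HSF1 shRNA difference of 0.13 ± 0.06 did not pass the test, and Psmf1 rose by 0.31 ± 0.06 under RPA1 shRNA (limma adjusted p = 0.17 and 0.0031). Psme2, a subunit of the interferon-inducible activator ring, gave 12.21, 12.24 and 12.34 in control arrays, 12.69, 12.53 and 12.51 under HSF1 shRNA and 12.47, 12.60 and 12.39 under RPA1 shRNA. No knockdown array of Psme2 reached down to the controls. It rose by 0.32 ± 0.07 and 0.23 ± 0.07 (limma adjusted p = 0.015 and 0.038). Its ring partner Psme1 was not called, at 0.15 ± 0.07 and -0.11 ± 0.07 (limma adjusted p = 0.16 and 0.25). Psme4, a single-chain activator, rose by 0.20 ± 0.05 under HSF1 shRNA and stood at 0.09 ± 0.05 under RPA1 shRNA (limma adjusted p = 0.023 and 0.21). Altogether 3 of the 5 rose in each comparison, with medians of 0.20 and 0.23. Of all genes 9.89% rose under HSF1 shRNA and 15.4% under RPA1 shRNA. Under HSF1 shRNA the 3 became 1, Psme3, without control array 1 or 2 or HSF1 shRNA array 1.

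**Figure D3:**
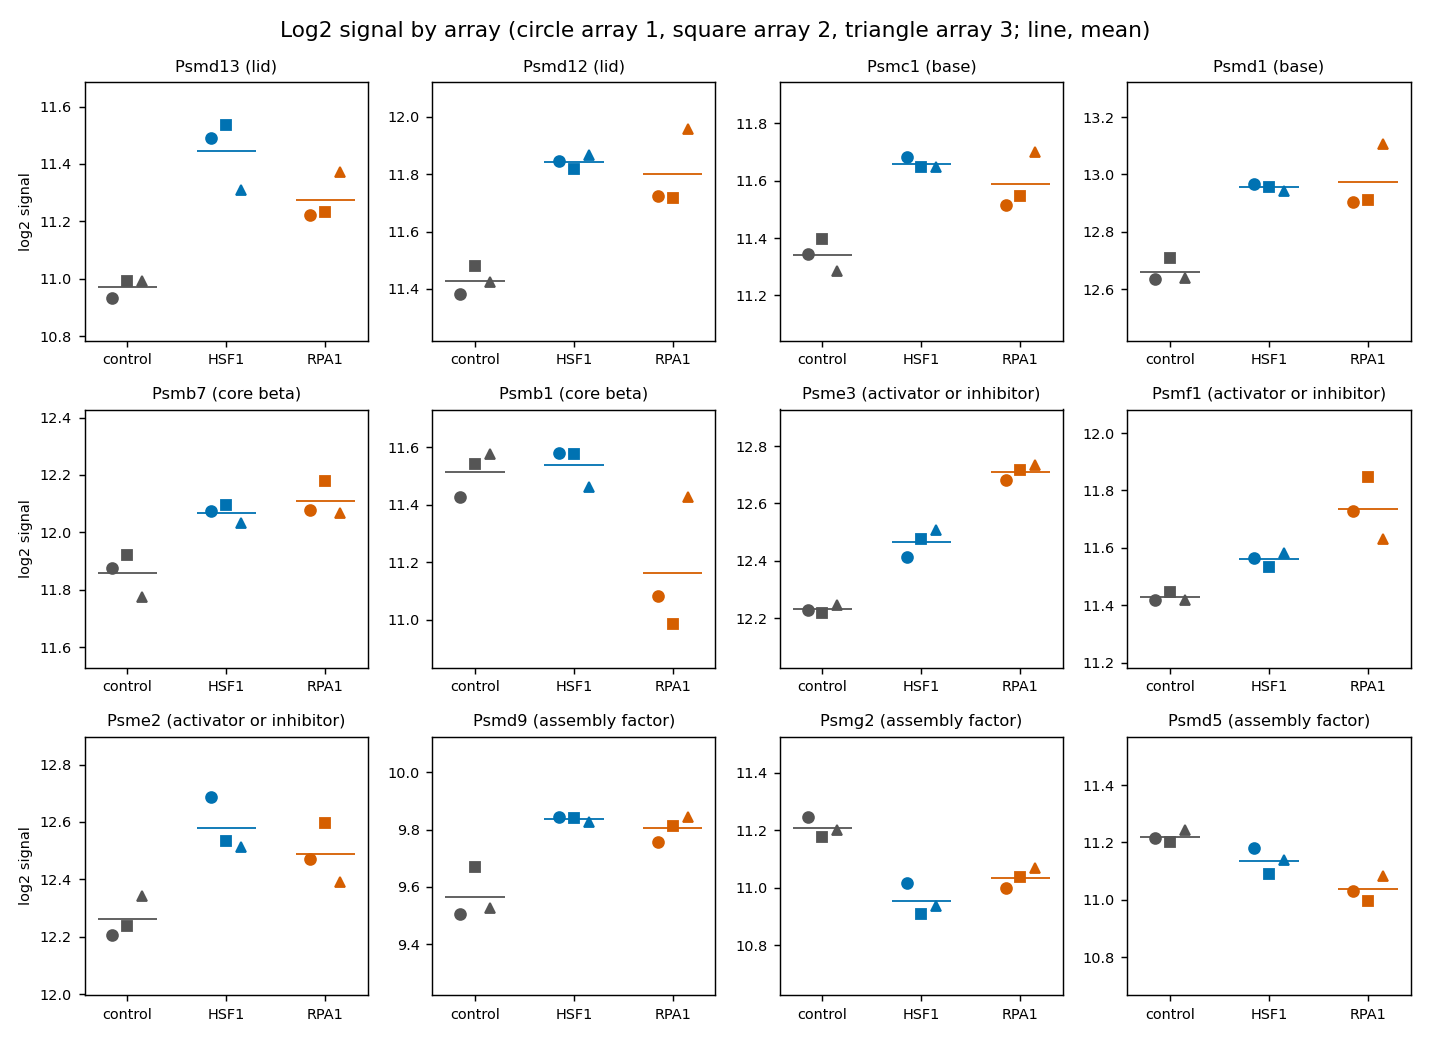
Log2 signal of 12 genes in each array, with the line at the group mean and each panel spanning the same range of log2 units. Psmd13, Psmd12, Psmc1, Psmd1, Psmb7, Psme2, Psme3, Psmf1 and Psmd9 have all knockdown arrays above all control arrays. Psmg2 and Psmd5 have all of them below. The 3 groups are separate in Psme3, Psmf1 and Psmd5.

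Assembly factors moved in both directions. Psmd9, a chaperone of the base, gave 9.51, 9.67 and 9.53 in control arrays, 9.84, 9.84 and 9.83 under HSF1 shRNA and 9.76, 9.81 and 9.84 under RPA1 shRNA. All knockdown arrays lay above the controls. Psmd9 rose by 0.27 ± 0.05 and 0.24 ± 0.05 (limma adjusted p = 0.0096 and 0.0087). Psmg2, which pairs with Psmg1 to start the alpha ring, gave 11.25, 11.18 and 11.20 in control arrays, 11.02, 10.91 and 10.94 under HSF1 shRNA and 11.0001, 11.04 and 11.07 under RPA1 shRNA. Every knockdown array of Psmg2 lay below every control array. It fell by 0.25 ± 0.05 under HSF1 shRNA and fell by 0.17 ± 0.05 under RPA1 shRNA (limma adjusted p = 0.0073 and 0.024). Psmg1 itself was not called, at -0.07 ± 0.06 and 0.15 ± 0.06 (limma adjusted p = 0.52 and 0.10).

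Psmd5, a further chaperone of the base, gave 11.22, 11.20 and 11.24 in control arrays, 11.18, 11.09 and 11.14 under HSF1 shRNA and 11.03, 10.99 and 11.08 under RPA1 shRNA. Both knockdowns lay below the controls, the RPA1 shRNA arrays lowest. The HSF1 shRNA difference of -0.08 ± 0.05 did not pass the test, and Psmd5 fell by 0.18 ± 0.05 under RPA1 shRNA (limma adjusted p = 0.29 and 0.015). The 7 assembly factors gave 1 rise and 1 fall under HSF1 shRNA, median 0.14, and 1 rise and 2 falls under RPA1 shRNA, median -0.17. Of all genes 16.1% were called under HSF1 shRNA and 30.1% under RPA1 shRNA. The 3 calls under RPA1 shRNA became 1, Psmd9, without control array 3 or RPA1 shRNA array 2. They became 2 rises and 4 falls without RPA1 shRNA array 3, where 36.3% of all genes were called. The falls gained there were Psmd10 at -0.46 and Psmg4 at -0.35.

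Psmd10, also known as gankyrin, had the widest gap between RPA1 shRNA array 3 and the mean of the other 2, at 0.70. It was chosen after its values were seen. Its signal was 11.15, 11.35 and 11.31 in control arrays, 11.51, 11.51 and 11.26 under HSF1 shRNA and 10.79, 10.82 and 11.51 under RPA1 shRNA. Arrays 1 and 2 lay below every control and array 3 above every one. With all 3 arrays the difference was -0.23 ± 0.17 (limma adjusted p = 0.37).

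**Figure D4:**
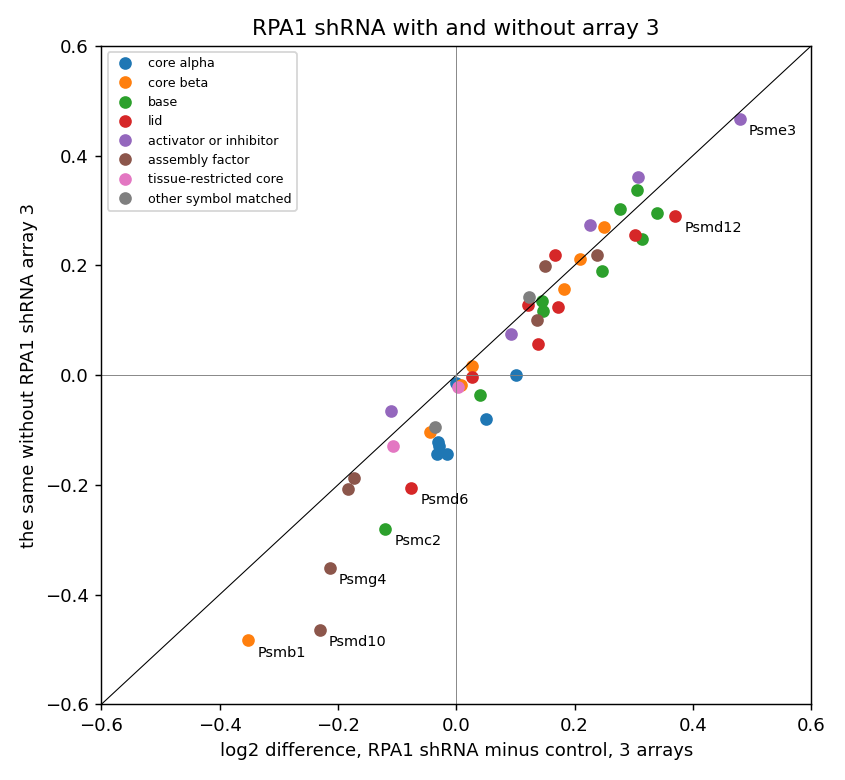
Log2 difference of RPA1 shRNA from control for the 47 genes with 3 RPA1 shRNA arrays (horizontal) and without array 3 (vertical), coloured by role, with the line of equality. Psme3 and Psmd12 are labelled at the top right, and Psmb1, Psmd10, Psmg4, Psmc2 and Psmd6 lie below the line, further from 0 without array 3.

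The members outside the fibroblast proteasome were not called in either comparison. Psma8, a core subunit of the testis, gave 6.03, 5.86 and 6.02 in control arrays, 5.99, 6.09 and 5.85 under HSF1 shRNA and 5.99, 5.91 and 6.02 under RPA1 shRNA. Psmb11, the catalytic subunit of thymic epithelium, gave 6.68, 6.65 and 6.77, then 6.72, 6.74 and 6.67, then 6.56, 6.58 and 6.64. The groups of Psma8 overlapped, and the RPA1 shRNA arrays of Psmb11 lay below its controls by a mean of -0.11 ± 0.05 (limma adjusted p = 0.14). Psmc3ip gave 9.29, 9.19 and 9.26, then 9.31, 9.29 and 9.14, then 9.31, 9.46 and 9.33, with an RPA1 shRNA difference of 0.12 ± 0.06 (limma adjusted p = 0.19). Psme3ip1 stood at 0.13 ± 0.06 under HSF1 shRNA and -0.04 ± 0.06 under RPA1 shRNA (limma adjusted p = 0.19 and 0.71). Under RPA1 shRNA Psmb11 was called lower after quantile scaling, cyclic loess or array weights, and Psmc3ip higher after quantile scaling.

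Calls differed in how they held when 1 array was left out. Under HSF1 shRNA 9 of the 15 calls were kept whichever array was left out: Psmc1, Psmc4, Psmd1, Psmd2, Psmd12, Psmd13, Psmd9 and Psme3 higher and Psmg2 lower. The other 6, which were Psmb7, Psmc5, Psmc6, Psmd3, Psme2 and Psme4, were all lost without control array 1, and 5 of them when control array 3 was dropped, or either the first or the third HSF1 shRNA array. The count was 9 without control array 1. It was 24, of which 23 higher, without RPA1 shRNA array 3, where 23.6% of all genes were called, 14.4% higher and 9.16% lower. Under RPA1 shRNA 12 of the 19 were kept, all higher: Psmb2, Psmb7, Psmc1, Psmc3, Psmc4, Psmc5, Psmd1, Psmd12, Psmd13, Psmd9, Psme3 and Psmf1. The other 7 were the rises of Psmb5, Psmd2, Psmd4 and Psme2 and the falls of Psmb1, Psmd5 and Psmg2. All 7 were lost without RPA1 shRNA array 2, and all but Psme2 without control array 3. The count was 12 without RPA1 shRNA array 2, and 17 higher and 7 lower without array 3, where 36.3% of all genes were called, 18.5% higher and 17.8% lower. The median was then 0.06, against 0.10 with all arrays. The rises given array by array were all still called without array 3: Psme3 at 0.47, Psmf1 at 0.36, Psmc5 at 0.30, Psmd12 at 0.29, Psme2 and Psmb7 at 0.27, Psmd13 and Psmd1 at 0.25, Psmd9 at 0.22 and Psmc1 at 0.19. So were the falls of Psmd5 at -0.21 and Psmg2 at -0.19 (limma).

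The 2 knockdowns were also compared directly, which uses no control array for the difference itself. Of the 47 genes 6 were higher under HSF1 shRNA than under RPA1 shRNA (Psmb1, Psmb6, Psmd2, Psmd6, Psme1 and Psmg4) and 2 were lower (Psme3 and Psmg1), where 24.4% of all genes were called, 14.7% higher and 9.71% lower. All 3 HSF1 shRNA arrays lay above all 3 RPA1 shRNA arrays in 11 genes (20.5% of all genes) and below in 6 (14.1%), and the median difference was 0.09 against 0.02 over all genes. The largest rise was that of Psmb1, higher under HSF1 shRNA by 0.38 ± 0.10 (limma adjusted p = 0.026), with HSF1 shRNA arrays from 11.46 to 11.58 and RPA1 shRNA arrays from 10.98 to 11.43. The largest fall was that of Psme3, at -0.25 ± 0.05 (limma adjusted p = 0.0041). Psme1 was higher under HSF1 shRNA by 0.26 ± 0.07 and Psmg1 lower, at -0.22 ± 0.06 (limma adjusted p = 0.017 and 0.028).

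These direct calls depended on the scaling and on single arrays. The 6 higher and 2 lower became 3 higher and 6 lower after quantile scaling, and 3 higher and 5 lower after median centring or cyclic loess. Psme3 alone was kept whichever array was left out. The count was 1 without HSF1 shRNA array 1, 2 without RPA1 shRNA array 1 or 2, 4 without HSF1 shRNA array 2, and 5 without HSF1 shRNA array 3 or any 1 control array. Without RPA1 shRNA array 3 it was 17 higher and 3 lower, where 32.8% of all genes were called, 18.9% higher and 13.9% lower. Of the 17 higher, 5 were alpha subunits.

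Other genes of the pathway were read from the same table. Of 6 subunits and partners outside the symbol rule 2 rose under HSF1 shRNA, and 2 rose and 1 fell under RPA1 shRNA. Of all genes 9.89% rose and 6.21% fell under HSF1 shRNA, and 15.4% rose and 14.7% fell under RPA1 shRNA. The chaperone Pomp, which matures the beta ring, gave 10.43, 10.40 and 10.43 in control arrays, 10.96, 10.93 and 10.87 under HSF1 shRNA and 10.89, 10.98 and 10.95 under RPA1 shRNA. All 6 knockdown arrays lay above the controls. Pomp rose by 0.50 ± 0.05 and 0.52 ± 0.05 (limma adjusted p = 0.00028 and 5.5e-05). Ecpas, a partner of the whole particle, fell by 0.22 under RPA1 shRNA (limma adjusted p = 0.01). The deubiquitinase Uchl5 was higher under HSF1 shRNA than under RPA1 shRNA by 0.16 (limma adjusted p = 0.049), a call lost without 8 of the 9 arrays, each left out singly, and under quantile, median and loess scaling. The partner counts without RPA1 shRNA array 3 were 3 higher under HSF1 shRNA, 2 higher and 2 lower under RPA1 shRNA, and 2 higher between the knockdowns. In that fit 14.4% of all genes were higher under HSF1 shRNA, and 18.5% higher and 17.8% lower under RPA1 shRNA. Between the knockdowns 18.9% were higher. Of the 3 inducible subunits Psmb10 rose under both, by 0.47 and 0.42 (limma adjusted p = 0.0017 and 0.001), and Psmb8 rose by 0.30 under RPA1 shRNA (limma adjusted p = 0.017). Leaving out control array 3 or RPA1 shRNA array 1 ended the Psmb8 call. In the fit without RPA1 shRNA array 3, 2 of the 3 were higher under HSF1 shRNA and 3 under RPA1 shRNA.

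Of 9 genes of the transcriptional control of the proteasome, 2 rose and 2 fell under HSF1 shRNA, and 3 rose and 1 fell under RPA1 shRNA. The shares of all genes called were 16.1% and 30.1%. The counts without RPA1 shRNA array 3 were 2 higher and 3 lower, and 5 higher and 1 lower. The shares of all genes were then 23.6% and 36.3%. The falls under HSF1 shRNA were Nfe2l1 and the deglycosylase Ngly1, and Ngly1, at -0.34 (limma adjusted p = 0.047), lost its call without any 1 control array, HSF1 shRNA array 2 or 3, or RPA1 shRNA array 1. Nfe2l1, the factor that drives the subunit genes, gave 11.92, 12.02 and 12.08 in control arrays, 11.56, 11.59 and 11.48 under HSF1 shRNA and 11.68, 11.74 and 11.87 under RPA1 shRNA. All knockdown arrays lay below the controls. Nfe2l1 fell by 0.46 ± 0.07 and fell by 0.24 ± 0.07 (limma adjusted p = 0.0018 and 0.019), the second call being lost without control array 2 or 3 or RPA1 shRNA array 1 or 2. Maff, a small Maf that pairs with Nfe2l1-type factors, rose by 0.84 and 1.22 (limma adjusted p = 6.8e-05 and 2.7e-06). In the direct comparison 5 of the 9 were lower under HSF1 shRNA, where 9.71% of all genes were lower. The largest fall was in Mafg, at -0.52 (limma adjusted p = 0.0037). The 5 became 3 without HSF1 shRNA array 2 or RPA1 shRNA array 2, the calls of Nfe2l1 and Mafk being lost. They became 6 lower and 1 higher without RPA1 shRNA array 3, where 13.9% of all genes were lower and 18.9% higher.

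Among 8 shuttle and unfoldase genes 1 rose under HSF1 shRNA, and 2 rose and 1 fell under RPA1 shRNA. The shares of all genes called were 16.1% and 30.1%, and 23.6% and 36.3% without RPA1 shRNA array 3. With RPA1 shRNA array 3 left out the counts of the 8 were 3 higher and 1 lower, with Ubqln1 and Ubqln2 added to the higher, and 2 higher and 2 lower, with Ubqln2 added to the lower at -0.32. Without RPA1 shRNA array 2 the HSF1 shRNA count was 2. The rise of the unfoldase Vcp under HSF1 shRNA was 0.16 (limma adjusted p = 0.034), and it was lost without any 1 control or HSF1 shRNA array and under median or loess scaling. Its cofactor Ufd1 rose by 0.38 under RPA1 shRNA and another, Nsfl1c, fell by 0.27 (limma adjusted p = 0.0081 and 0.0048). Directly compared, the shuttle Ubqln2 was higher under HSF1 shRNA by 0.46 and the cofactor Nploc4 lower, at -0.24 (limma adjusted p = 0.0061 and 0.006). Of the genes of ubiquitin and its activation, Uba6 alone of the list of 6 was tested: against control it stood at 0.22 ± 0.20 under HSF1 shRNA and -0.41 ± 0.20 under RPA1 shRNA (limma adjusted p = 0.52 and 0.16), and it was higher under HSF1 shRNA than under RPA1 shRNA by 0.63 ± 0.20 (limma adjusted p = 0.044). That call was lost without any 1 array other than RPA1 shRNA array 3, and under quantile, median and loess scaling. Without RPA1 shRNA array 3 the direct difference was 0.92, and Uba6 was called in both control comparisons, at 0.22 under HSF1 shRNA (limma adjusted p = 0.019) and -0.70 under RPA1 shRNA (limma adjusted p = 3.5e-05).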

How the data were processed

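The deposited table gives a log2 signal for each probe set on each of 9 arrays, and no further scaling was applied. The authors used RMA in Partek 6.5, per the submitters' processing notes. No source states the scale, which was read as log2 from the range of the values. Signal over background was not measured, so no filter on dim genes was used, and the number of arrays limits the precision.

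The table held 35557 rows. The array's annotation gave 21789 of them 1 gene symbol and 1621 several, and did not list 12147. Rows with 1 symbol were tested, the row with the highest mean standing for a gene, which left 19938 genes; 5 of the 47 proteasome genes had more than 1 row.

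R 4.3.3 and limma 3.58.1 were used: 1 mean per group over 9 arrays, 3 contrasts, moderated variances, and Benjamini-Hochberg adjustment over all genes. The fit was tested on simulated data. Values per array are given for up to 2 called genes of largest difference per role in each control comparison, for the largest rise and fall between knockdowns, and for Psma8, Psmb11 and Psmc3ip; other pathway lists name the called gene of largest rise and fall in each contrast. Additional members, such as Psmb5, Psmd14 and Psme1, are described for their known role, and Psmc2 and Psmd10 were picked on their values. The members and lists were chosen with earlier results of these data known. Alternatives covered scaling, dim genes, the rows of a gene, the variance model, array weights, the replicate block and each array left out. Motifs were searched on both strands of RefSeq GRCm38.p6 windows.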

Additional observations from a re-analysis of the deposited data

How the results depend on the processing

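With all 9 arrays, 15 of the 47 genes were called under HSF1 shRNA, 19 under RPA1 shRNA and 8 between the knockdowns. Of all genes 16.1%, 30.1% and 24.4% were called in the same order. The HSF1 shRNA count was 24 with only the 6 arrays compared, 24 with array weights, and 9 to 24 with 1 array left out. The RPA1 shRNA count was 12 to 24 with 1 array left out, and its median difference moved from 0.10 to 0.0368 with array weights. The direct count was 13 among genes above the median gene, 1 with only the 6 arrays compared, 5 with unmoderated variances, 25 with array weights and 1 to 20 with 1 array left out. Medians with 1 array left out were 0.13 to 0.18 under HSF1 shRNA, 0.06 to 0.13 under RPA1 shRNA and 0.06 to 0.13 between the knockdowns. The core alpha median under RPA1 shRNA turned from -0.02 to 0.0345 without RPA1 shRNA array 1, the highest with 1 array left out, the lowest being -0.1218 without array 3. The base median between the knockdowns turned from -0.02 to 0.0332 with every row its own unit, 0.0364 with array weights and 0.0468 without RPA1 shRNA array 3, its range with 1 array left out being -0.0533 to 0.0468. Array weights gave RPA1 shRNA array 3 the lowest weight, 0.213. The cause of the other shifts was not tested. With the replicate number as a block the counts were 14, 16 and 5; deviations of same-numbered arrays correlated between -0.16 and 0.09, so the numbers were not taken as pairs. For the 16 proteasome genes chosen by the rule, 954 alternative values kept direction and call in 852, lost the call in 45, gained it in 18 and turned sign in 39, with 0 of these called. Turned values by quantile, median and loess scaling in that order were -0.0414, -0.0294 and -0.0345 for Psma8, -0.0492, -0.0251 and -0.0320 for Psmb11 and -0.0169, -0.0329 and -0.0195 for Psmc3ip under HSF1 shRNA, and between the knockdowns -0.0206, -0.0410 and -0.0127 for Psma8 and -0.0073, -0.0117 and -0.0111 for Psmd9. Psmb1 under HSF1 shRNA turned to -0.0102 and -0.0149 by median and loess, and Psma8 under RPA1 shRNA to -0.0208 and -0.0218 by quantile and loess. Array weights turned Psmc3ip under HSF1 shRNA to -0.0022, Psma8 under RPA1 shRNA to -0.0009 and Psmd1 between the knockdowns to 0.0364. With 1 array left out, values under HSF1 shRNA ran from -0.0195 to 0.0633 for Psmb1, -0.0516 to 0.0684 for Psma8, -0.0151 to 0.0441 for Psmb11 and -0.0302 to 0.0529 for Psmc3ip. Psma8 ran from -0.0511 to 0.0353 under RPA1 shRNA and from -0.0542 to 0.0658 between the knockdowns, and Psmd1 between the knockdowns from -0.0533 to 0.0468.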

Other observations

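One array row annotated to both Psme2b and Psme2 was left out of the tests because it carries 2 symbols. Its log2 signal was 11.15, 11.14 and 11.23 in control arrays, 11.61, 11.55 and 11.47 under HSF1 shRNA and 11.38, 11.49 and 11.34 under RPA1 shRNA. All 6 knockdown arrays lay above the controls, as they did for the row of Psme2 alone.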
